A study of Homo sapiens with 9 samples.

Results

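The 35 genes described here encode proteins of the synapse, ion channels, neurotransmitter receptors and neuronal signalling, and were listed because each has a known or likely RE1 element. They were taken by gene symbol, whatever their signal, and are read by 85 probe sets of the array (1 to 6 for each gene), out of 19775 named genes and 54613 probe sets in all. A further probe set names MAPK8IP1 together with another gene and was left out. RNA came from SK-N-AS, an established human neuroblastoma cell line, and was measured on 9 Affymetrix arrays. The RE-EX1 series received a construct for full-length NRSF, the HZ4 series received a construct for truncated NRSF, and the remaining series was untreated. Each series has 1 array at 0 h, 1 at 24 h and 1 at 48 h, and the labels call the 0 h arrays of both construct series baseline controls. How the constructs were delivered, which promoter drives them, which part of NRSF the truncated form lacks and whether cultures were pooled is not stated in the labels. No group has a replicate array: the series' design text speaks of triplicates and batches, but the labels name neither. 33 of the 85 probe sets have an identifier that marks possible cross-hybridization. Among those described below are the brightest ones (by mean signal) of SNAP25, KCNH2, GRIN1, GLRA3, DISP2 and RUNDC3A, and the second ones of SYT1 and MAPK8IP2.

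NRSF, also called REST, is a zinc finger repressor. It binds RE1 elements near neuronal genes and recruits the CoREST and SIN3 complexes, whose histone deacetylases and demethylases keep these genes off in cells that are not neurons. Synaptic vesicle proteins, voltage-gated channels and glutamate receptors are textbook targets, and their genes are switched on as NRSF declines during neuronal differentiation.

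The RE1 motif was looked for in the RefSeq promoter windows (GRCh38.p14), which run from 250 bases before to 50 bases after an annotated start, on both strands. It was written as a degenerate pattern of 17 positions, of which 14 limit the base and the others accept any base. Windows were given for 27 of the 35 genes, 45 windows in all because some genes have several starts. A match at all 17 positions was found in 2 of the 45, against 24 of all 35116 windows (0.0683%). At least 16 positions matched in 3 of the 45 (6.67%), against 406 of all windows (1.16%). The 2 full matches and the near match, CDK5R1 with 16 of 17 positions matched, are shown because they are the closest matches in these windows. Capitals mark the motif, and each is written 5′ to 3′ on the strand of the match:
SYN1: cagcTTCAGCACCGCGGACAGtgcc
GRIA2: gcctTTCAGCACCGAGGACAGcgcc
CDK5R1: tgccTGCAGAACCTTGGACAGaagc
Coordinates cover the motif with 4 bases on each side, and distances to the start are those of the motif alone. The SYN1 match lies at chrX:47620070-47620094 on the minus strand, 233 to 217 bases before the start of this synapsin gene. That of GRIA2, a glutamate receptor subunit gene, lies at chr4:157220388-157220412 on the minus strand, opposite to the gene and 227 to 211 bases before 1 of its 3 starts. That of CDK5R1, the activator of the neuronal kinase CDK5, lies at chr17:32486974-32486998 on the plus strand and spans the start. The left part of the motif, CAGCACC, stood in 9 of 45 member windows (20%) and in 7.75% of all windows. The right part, GGACAG, stood in 11 of 45 (24.4%) and in 20.5% of all windows. The genes were listed for RE1 elements, so these shares are a description. Elements outside the windows were not searched.

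The 250 bases before the SYN1 start (chrX:47619858-47620107, minus strand) are shown as the setting of a full match, with the motif in capitals:
SYN1 upstream: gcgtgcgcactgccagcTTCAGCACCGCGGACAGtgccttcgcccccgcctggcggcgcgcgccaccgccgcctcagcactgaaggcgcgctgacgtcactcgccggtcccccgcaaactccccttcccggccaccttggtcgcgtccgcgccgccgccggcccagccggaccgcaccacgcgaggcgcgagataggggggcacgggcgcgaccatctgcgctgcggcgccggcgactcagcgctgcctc
Over the 250 bases before the start, member windows had a median of 65.2% G and C, against 58% over all windows.

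SK-N-AS showed 12 of 12 mesenchymal neuroblastoma markers and 5 of 10 sympathoadrenal markers at a signal of 100 or more on all arrays. On at least 1 array, 7 of the 10 sympathoadrenal markers reached 100. Over all named genes these shares were 36.0% on all arrays and 50.3% on at least 1. GATA3 read 1346 to 1912, while TH and DBH, enzymes of catecholamine synthesis, stayed at or below 43.4 and 99.7. REST itself (chromosome 4, 56907900 to 56935844, GRCh38.p14) read 171, 268 and 274 at 0, 24 and 48 h in the full-length series, 162, 323 and 342 in the truncated series, against 177, 445 and 260.3 in untreated cells, on its brightest probe set. Whether that probe set lies in the sequence the constructs carry is not stated in the labels, so it does not check them. On the truncated 24 h array dim probe sets read high: those below the filter on mean signal had a median of 8.66 there, against 5.79 to 7.01 on the other arrays. Members below the filter had a median of 5.50 on it, within the 3.37 to 8.44 of the others. Each count of member calls below was also taken without this array.

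By a signal threshold of 100, 27 of the 35 genes were silent on every array. On its brightest probe set, a gene was called expressed on an array at 100 or more. By this measure 8 of 35 genes (22.9%) were expressed on at least 1 array, against 50.3% of all named genes, and 5 of 35 (14.3%) on all 9 arrays, against 36.0% of all named genes. At a threshold of 50 the count on at least 1 array was 19 of 35, and at 200 it was 5. The 5 on all arrays were SYT1, SNAP25, L1CAM, KCNH2 and STMN3. Of the 85 member probe sets 13 reached 100 on at least 1 array, against 36.9% of all probe sets. CELSR3, CHRNB2 and MAPK8IP2 crossed the threshold on some arrays, and 27 genes stayed below it on every array. The files hold no detection call, and a probe set's signal depends on its own binding, so the threshold separates probe sets rather than RNA amounts, and low signal cannot be told from no RNA. The deposited values do not show how many cells of a culture carried a construct, and fewer expressing cells and less RNA per cell cannot be told apart.

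**Figure D1:**
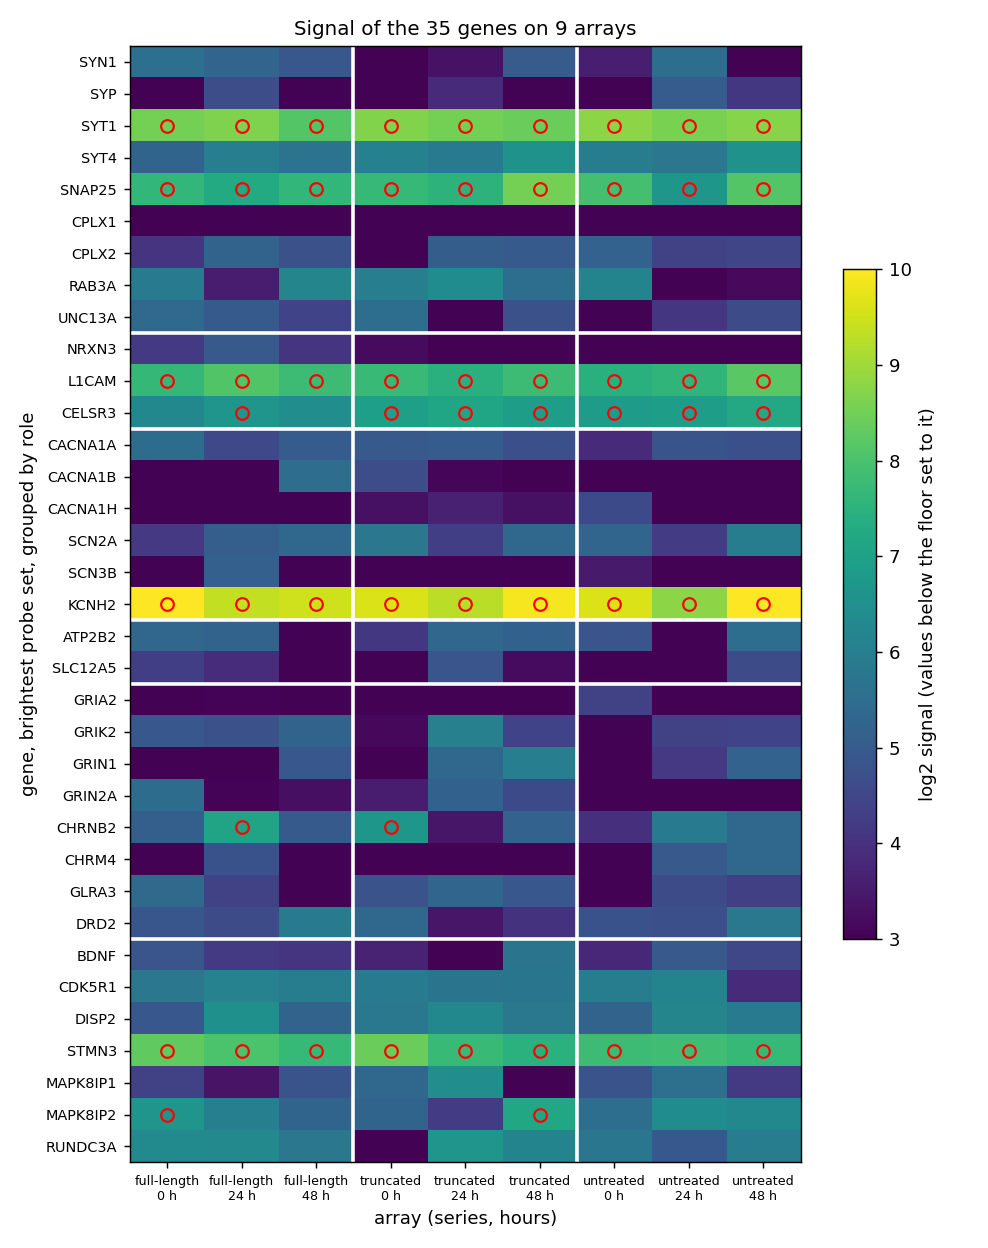
Log2 signal of the brightest probe set of each of 35 genes (rows, grouped by role) on the 9 arrays (columns). Red rings mark a signal of 100 or more, which 5 genes show on all 9 arrays and 3 genes on some. Colours compare arrays within a row, since probe sets differ in binding.

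Between 5 and 7 of the 35 genes were at 100 or more on any 1 array. The counts at 0, 24 and 48 h were 6, 7 and 5 genes in the full-length series, 7, 6 and 7 in the truncated series, against 6, 6 and 6 in untreated cells. The 3 series thus differed by at most 2 genes at any time. Just above the threshold were MAPK8IP2 in the full-length series at 0 h (100.3), CELSR3 in the full-length series at 24 h (101) and CHRNB2 in the truncated series at 0 h (104). Just below it was RUNDC3A, with 99.6 in the truncated series at 24 h, and SYT4, with 96.7 in the truncated series at 48 h.

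The genes of vesicle release were split, with 2 of 9 at 100 or more on all arrays and 7 of 9 below it on all. SYT1, which encodes the calcium sensor of fast transmitter release, read 370.3, 404 and 281 at 0, 24 and 48 h in the full-length series, 409, 370.4 and 339 in the truncated series, against 437, 385 and 424 in untreated cells. The series overlapped, and the highest array stood 1.56-fold above the lowest, the narrowest range of the 6 member probe sets that were at 100 or more on all arrays. The median of that ratio was 1.90 over 12424 such probe sets of the array. A second, dimmer SYT1 probe set read 145, 107 and 78.8 in the full-length series and 122, 88.2 and 91.7 in the truncated series. In untreated cells it read 98.3, 134 and 61.6. It ranged 2.35-fold, and all its 48 h values lay below all its 0 h values. Its change at 48 h, −0.65 ± 0.33 log2, did not pass the test (adjusted p = 0.30).

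SNAP25, a membrane protein of the SNARE complex that fuses vesicles, read 197, 155 and 200.2 in the full-length series, 206, 186 and 369 in the truncated series, against 244, 104 and 280.0 in untreated cells. The 24 h array was the lowest of each series, with the deepest dip in untreated cells, and all 24 h values lay below all 0 h values. Its change at 24 h, −0.57 ± 0.25 log2 (standard error, n = 3 arrays per time), did not pass the test (adjusted p = 0.17). SNAP25 on its brightest probe set ranged 3.54-fold, the widest of the 6.

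The vesicle genes below 100 included SYT4, a relative of SYT1, at 38.2 to 96.7, and RAB3A, a GTPase of vesicles, at 3.85 to 84.2. SYN1, whose RE1 element is printed above, read 4.28 to 47.2. SYP, which encodes synaptophysin, read 2.36 to 33.0, and CPLX1, a complexin that clamps the SNARE complex, read 0.98 to 7.26 and lay below the floor of 8.27 on all 9 arrays. CPLX2 read 1.42 to 37.8 and UNC13A, a vesicle priming factor, 2.50 to 46.4.

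RAB3A read 60.3, 11.6 and 73.3 at 0, 24 and 48 h in the full-length series, 64.3, 84.2 and 45.8 in the truncated series, against 70.9, 3.85 and 9.06 in untreated cells. The 0 h arrays were alike, and at 24 and 48 h both construct arrays stood above the untreated one. The truncated arrays lay on both sides of their 0 h value, while the untreated ones were low at both later times. Net of untreated its change was 1.99 ± 1.45 log2 with full-length NRSF (adjusted p = 1.00) and 2.99 ± 1.45 with truncated NRSF (0.78), neither of which passed the test.

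Of the adhesion genes, L1CAM, an axonal cell adhesion molecule, read 202, 276 and 223 in the full-length series, 212, 173 and 225 in the truncated series, against 174, 192 and 298 in untreated cells. The 3 series overlapped, and all 48 h values lay above all 0 h values, with a change of 0.33 ± 0.24 log2 that did not pass the test (adjusted p = 0.50). NRXN3, a presynaptic neurexin, read 1.42 to 31.0.

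CELSR3, a cadherin that guides axon tracts, read 77.1, 101 and 86.6 in the full-length series, 125, 142 and 121 in the truncated series, against 115, 121 and 151 in untreated cells. All 3 full-length arrays lay below all 6 others, the 0 h array included. The full-length series differed from untreated by −0.55 ± 0.29 log2 (adjusted p = 0.62) and from truncated by −0.55 ± 0.29 (0.84), and neither passed the test. From the 0 h array, and net of the same change in untreated cells, the full-length term was 0.04 ± 0.66 log2. A second, dimmer CELSR3 probe set did not show this order: it read 3.87, 38.3 and 76.9 in the full-length series, 56.8, 11.8 and 50.03 in the truncated series, against 40.8, 48.1 and 31.8 in untreated cells. The full-length term of this second probe set was 2.77 ± 1.39 log2 and was not called.

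KCNH2 (chromosome 7, 150944961 to 150978321, GRCh38.p14), the hERG potassium channel gene, was the one voltage-gated channel gene of 6 at 100 or more. Its brightest probe set read 1078, 659 and 715 at 0, 24 and 48 h in the full-length series, 786, 616 and 963 in the truncated series, against 799, 442 and 1009.7 in untreated cells. The 24 h array was the lowest of each series and the 3 values at 24 h lay below the 3 at 0 h. At 48 h the truncated and untreated arrays were above their 0 h arrays and the full-length array was below its own. The other channel genes stayed dim: the calcium channel genes CACNA1A, CACNA1B and CACNA1H read 14.2 to 44.8, 1.96 to 45.6 and 2.37 to 23.8, and the sodium channel genes SCN2A and SCN3B read 17.9 to 62.2 and 0.93 to 35.7.

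Both pump and transporter genes were below 100 on all arrays. ATP2B2, a calcium pump gene, read 5.33 to 46.1, and SLC12A5, which encodes the neuronal chloride exporter KCC2, read 1.15 to 28.9.

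Of 8 receptor genes 7 were below 100 on all arrays. CHRNB2, a nicotinic acetylcholine receptor subunit gene, read 34.6, 137 and 31.9 at 0, 24 and 48 h in the full-length series, 104, 10.7 and 36.8 in the truncated series, against 15.6, 58.4 and 40.9 in untreated cells. Only the full-length 24 h and the truncated 0 h array passed 100, so the 2 high values shared neither hour nor construct. GRIA2, the receptor gene with an RE1 match, read 1.52 to 20.6. The remaining glutamate receptor genes GRIK2, GRIN1 and GRIN2A read 3.62 to 65.9, 3.13 to 64.0 and 1.38 to 44.1. The muscarinic receptor gene CHRM4 read 3.42 to 40.6, the glycine receptor gene GLRA3 3.61 to 42.6 and the dopamine receptor gene DRD2 10.8 to 59.6.

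Of 7 growth factor and signalling genes STMN3, a stathmin that binds tubulin, was above 100 on all arrays. It read 314, 261 and 208 at 0, 24 and 48 h in the full-length series, 337, 210.2 and 176 in the truncated series, against 222, 229.8 and 205 in untreated cells. Each 48 h array lay below each 0 h array. Its change at 48 h was −0.55 ± 0.22 log2 and did not pass the test (adjusted p = 0.17). The second STMN3 probe set, at 4.01 to 34.4, had a value of 0.91 ± 0.82. BDNF, the neurotrophin gene, read 2.25 to 51.4, CDK5R1 14.2 to 72.0, and DISP2, a dispatched homologue, 29.7 to 91.3. MAPK8IP1, a scaffold of JNK signalling, read 2.99 to 86.3, and RUNDC3A 7.10 to 99.6.

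MAPK8IP2, the related JNK scaffold, read 100.3, 64.8 and 37.9 in the full-length series, 37.9, 19.1 and 143 in the truncated series, against 45.8, 84.0 and 77.5 in untreated cells. Its 2 values at 100 or more were on the full-length 0 h and the truncated 48 h array. A second probe set read 27.7, 57.7 and 54.3 in the full-length series, 49.1, 117 and 72.4 in the truncated series, against 79.8, 18.8 and 17.2 in untreated cells. Where the first was lower at both later times than at 0 h in the full-length series, the second was higher, and in untreated cells the order was turned as well.

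**Figure D2:**
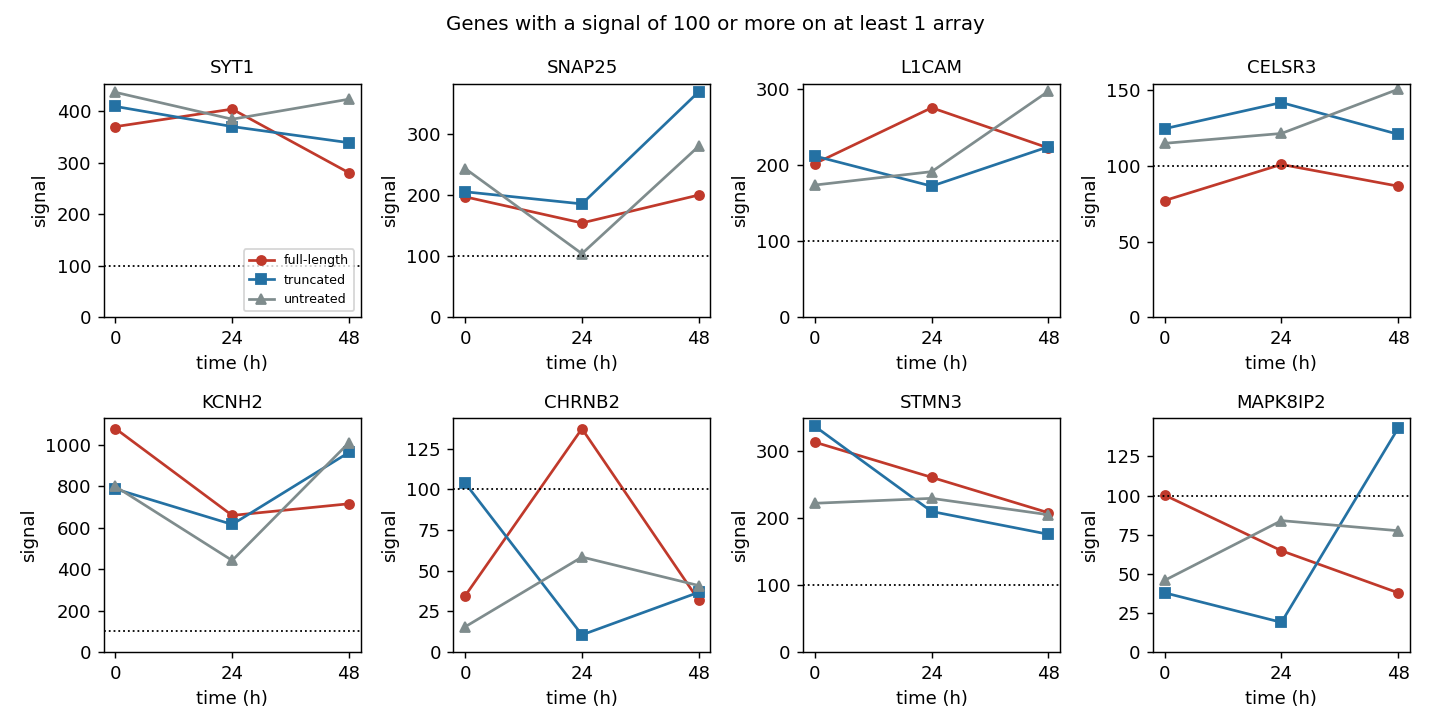
Signal (y axes start at 0) against time in h for the 8 genes that reach 100 (dotted line) on at least 1 array, with 1 array per point. Series overlap in 7 of the 8 genes, and in CELSR3 the full-length arrays, 77.1 to 101, lie below the others.

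In the 27 silent genes 67 probe sets were read, which gave 603 values. Of these 293 (48.6%) were at or below the floor of 8.27. The highest was 99.6. These genes were set apart by their low signal, so the share is a description. Over all 85 member probe sets the median signal was 17.9, 21.0 and 20.7 at 0, 24 and 48 h in the full-length series, 10.7, 18.9 and 12.8 in the truncated series, against 14.0, 17.1 and 17.2 in untreated cells. The median of all probe sets ran from 30.8 to 42.6 over the arrays, above the member median on each.

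Tests of change used the 32752 probe sets with mean log2 signals past the 40th percentile. Of the 85 member probe sets 37 were among them, from 25 of the 35 genes. The 10 genes left out, SYP, CPLX1, NRXN3, CACNA1B, CACNA1H, SCN3B, SLC12A5, GRIA2, GRIN2A and CHRM4, were not tested. A single linear model over 9 arrays (limma) held series and time, and a call is a Benjamini-Hochberg adjusted p under 0.05 over all 32752 probe sets. The p-values measure the spread between these arrays, and the labels name no separate cultures.

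At 24 h over 0 h, KCNH2 fell by 0.64 ± 0.19 log2 (adjusted p = 0.033, n = 3 arrays per time), the only 1 of 37 member probe sets called, with 0 called higher, where 11.5% of all probe sets were called (5.73% higher and 5.74% lower). The change was negative in 3 of 3 series: KCNH2 stood at 659 against 1078 with full-length NRSF, 616 against 786 with truncated NRSF and 442 against 799 in untreated cells. Without the truncated 24 h array its value was −0.71 (adjusted p = 0.061), and without the full-length or the untreated series −0.60 (0.10) and −0.53 (0.16), so that the call ended in each case. By its identifier the called probe set is open to cross-hybridization, and the second is not. The second KCNH2 probe set read 168, 106 and 150.2 in the full-length series, 269, 182 and 129 in the truncated series, against 179.7, 196 and 207 in untreated cells. It was lower at 24 h in both construct series and higher in untreated cells, and its change of −0.37 ± 0.27 was not called (adjusted p = 0.46).

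At an unadjusted p under 0.05, 5 of 37 member probe sets passed at 24 h (13.5%), against 23.9% of all probe sets. Besides KCNH2 and SNAP25 they were SCN2A on its dimmer probe set at −1.79 ± 0.64 (adjusted p = 0.083), RAB3A at −1.70 ± 0.73 (0.15) and DISP2 at 1.01 ± 0.45 (0.17). DISP2 read 29.7, 91.3 and 37.1 at 0, 24 and 48 h in the full-length series, 55.7, 76.4 and 55.4 in the truncated series, against 37.5, 72.6 and 57.5 in untreated cells. Its 24 h array was the highest of each series. SCN2A on that probe set read 31.9, 8.80 and 44.8 in the full-length series, 38.1, 18.9 and 55.8 in the truncated series, against 47.0, 8.19 and 46.4 in untreated cells, with the 24 h array lowest in each.

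The median change of the 37 was 0.04 log2 at 24 h and 0.12 at 48 h, against −0.02 and −0.03 over all probe sets tested. At 48 h over 0 h limma called 0 of 37, where 5.46% of all probe sets were called, and 2 of 37 (5.41%) had an unadjusted p under 0.05, against 18.8% of all. These were STMN3, given above, and GRIN1 at 2.32 ± 0.81 (adjusted p = 0.11), an NMDA receptor subunit gene on a probe set that is open to cross-hybridization by its identifier. GRIN1 read 4.84, 5.07 and 29.8 in the full-length series, 3.13, 41.5 and 64.0 in the truncated series, against 4.19, 17.9 and 36.8 in untreated cells. All 3 of the 0 h values lie below the floor.

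Values at 24 h did not overlap those at 0 h in 6 of 37 member probe sets (16.2%, against 26.9% of all), and values at 48 h in 5 of 37 (13.5%, against 24.2%). At 24 h DISP2 and a dimmer STMN3 probe set were higher, and SNAP25, KCNH2, SCN2A on its dimmer probe set and a DRD2 probe set lower. At 48 h L1CAM and GRIN1 were higher, and STMN3, the second SYT1 probe set and a dimmer RUNDC3A probe set lower.

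Whether the full-length or truncated arrays differed from untreated was asked first over the 3 hours together. In the full-length series over the untreated series limma called 0 of 37 member probe sets (0 at an unadjusted p under 0.05, against 8.69% of all), where 0.0794% of all probe sets were called. In the truncated series over the untreated series it called 0 of 37 (2 unadjusted), where 0.0% of all probe sets were called, with 4.83% of all at an unadjusted p under 0.05. The 2 were RAB3A at 1.85 ± 0.73 log2 and the second MAPK8IP2 probe set at 1.34 ± 0.61, both with an adjusted p of 0.96. Between the full-length and the truncated series it called 0 of 37 (0 unadjusted, against 6.11% of all), where 0.00916% of all were called. Median differences of the 37 were −0.00499, 0.07 and 0.04 log2 in these 3 comparisons, which share arrays.

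For the expressed genes the intervals of these differences show their precision. SYT1 stood at −0.25 log2 in the full-length series over untreated (95% interval −0.64 to 0.13) and at −0.16 in the truncated series (−0.54 to 0.23). KCNH2 stood at 0.17 (−0.23 to 0.57) and 0.13 (−0.27 to 0.53), L1CAM at 0.11 (−0.39 to 0.60) and −0.09 (−0.58 to 0.40), STMN3 at 0.23 (−0.22 to 0.69) and 0.08 (−0.37 to 0.54), and SNAP25 at −0.07 (−0.60 to 0.46) and 0.33 (−0.20 to 0.86). All of these 10 intervals lie within 1 log2 of 0 and include it. For the dim members they were wider, with a median half-width over the 37 of 1.38 log2. These differences take in the 0 h arrays, so they do not measure the change after exposure. Intervals of the exposure terms described below were wider. For SNAP25 they ran from −0.74 to 1.43 with full-length and from −0.23 to 1.95 with truncated NRSF. For L1CAM they ran from −1.22 to 0.89 and −1.62 to 0.49, and for SYT1 from −0.86 to 0.82 and −0.94 to 0.75.

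Values of the full-length arrays did not overlap the untreated ones in 3 of 37 member probe sets (8.11%, against 10.3% of all): CELSR3 and the second KCNH2 probe set were lower and a GRIK2 probe set higher. For truncated against untreated arrays it was 2 of 37 (5.41%, against 6.1%), a GLRA3 probe set higher and a SNAP25 probe set lower, and for full-length against truncated arrays 1 of 37 (2.70%, against 7.3%), CELSR3 lower.

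The exposure terms take the change of a construct series from its own 0 h array, net of the same change in untreated cells, with 24 and 48 h as repeated readings. They rest on 2 residual degrees of freedom before limma moderates the variance. For full-length NRSF 0 of 37 member probe sets were called (1 at an unadjusted p under 0.05, against 3.99% of all), where 0.0153% of all were. For truncated NRSF 0 of 37 were called (3 unadjusted, or 8.11%, against 6.50% of all), where 0.0366% of all were. Between both constructs 0 of 37 were called (3 unadjusted, or 8.11%, against 5.69% of all), where 0.0153% of all were. Without the truncated 24 h array, an alternative added after seeing the data, each of these 3 counts was again 0.

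Among the brightest probe sets the largest full-length terms were those of GLRA3 (−3.13 ± 1.65 log2), UNC13A (−2.01 ± 1.69) and RAB3A (1.99 ± 1.45), each with an adjusted p of 1.00. GLRA3 read 42.6, 20.3 and 5.33 at 0, 24 and 48 h in the full-length series, 27.6, 38.7 and 29.9 in the truncated series, against 3.61, 24.2 and 20.0 in untreated cells. UNC13A read 41.8, 31.6 and 21.4 in the full-length series, 46.4, 6.87 and 26.7 in the truncated series, against 2.50, 17.1 and 24.9 in untreated cells. In both genes the untreated 0 h array lay below the floor, and all of the values lie below 50. A second UNC13A probe set was below the filter and not tested. It read 2.27, 36.7 and 17.9 in the full-length series and 25.1, 10.3 and 19.8 in the truncated series. In untreated cells it read 25.6, 2.40 and 8.75. Its later values were thus higher than at 0 h in the full-length series and lower in untreated cells, the reverse of the first.

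The largest truncated terms among the brightest probe sets were those of CHRNB2 (−4.04 ± 1.40, adjusted p = 0.54), RUNDC3A (3.67 ± 1.08, adjusted p = 0.37) and RAB3A. RUNDC3A read 81.8, 78.5 and 55.0 in the full-length series, 7.10, 99.6 and 71.7 in the truncated series, against 54.2, 30.6 and 62.1 in untreated cells. Its truncated 0 h value was the lowest of the 9 and lay below the floor, and its truncated 24 h value was the highest. CHRNB2 had its truncated high value at 0 h, and without the truncated 24 h array its term was −2.49 (adjusted p = 0.85). The full-length terms of these genes were −0.71 ± 1.40 for CHRNB2 and −0.0016 ± 1.08 for RUNDC3A. The difference between constructs was 3.32 ± 1.40 (adjusted p = 0.81) for CHRNB2 and −3.67 ± 1.08 (0.54) for RUNDC3A, full-length over truncated. For the second CELSR3 probe set it was 3.94 ± 1.39 (0.69). These were the 3 with an unadjusted p under 0.05 between constructs.

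The second MAPK8IP2 probe set was the single one with an unadjusted p under 0.05 for both constructs, at 3.17 ± 1.09 log2 with full-length NRSF (adjusted p = 1.00) and 3.06 ± 1.09 with truncated NRSF (0.57). Both terms are net of the same untreated arrays, on which it read 79.8 at 0 h and 18.8 and 17.2 later. The brighter MAPK8IP2 probe set gave −1.83 ± 1.21 and −0.35 ± 1.21. Of the expressed genes, SNAP25 stood at 0.34 ± 0.52 and 0.86 ± 0.52, STMN3 at −0.39 ± 0.45 and −0.78 ± 0.45, KCNH2 at −0.39 ± 0.39 and 0.23 ± 0.39, L1CAM at −0.16 ± 0.50 and −0.56 ± 0.50, and SYT1 at −0.02 ± 0.40 and −0.09 ± 0.40 with full-length and with truncated NRSF.

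**Figure D3:**
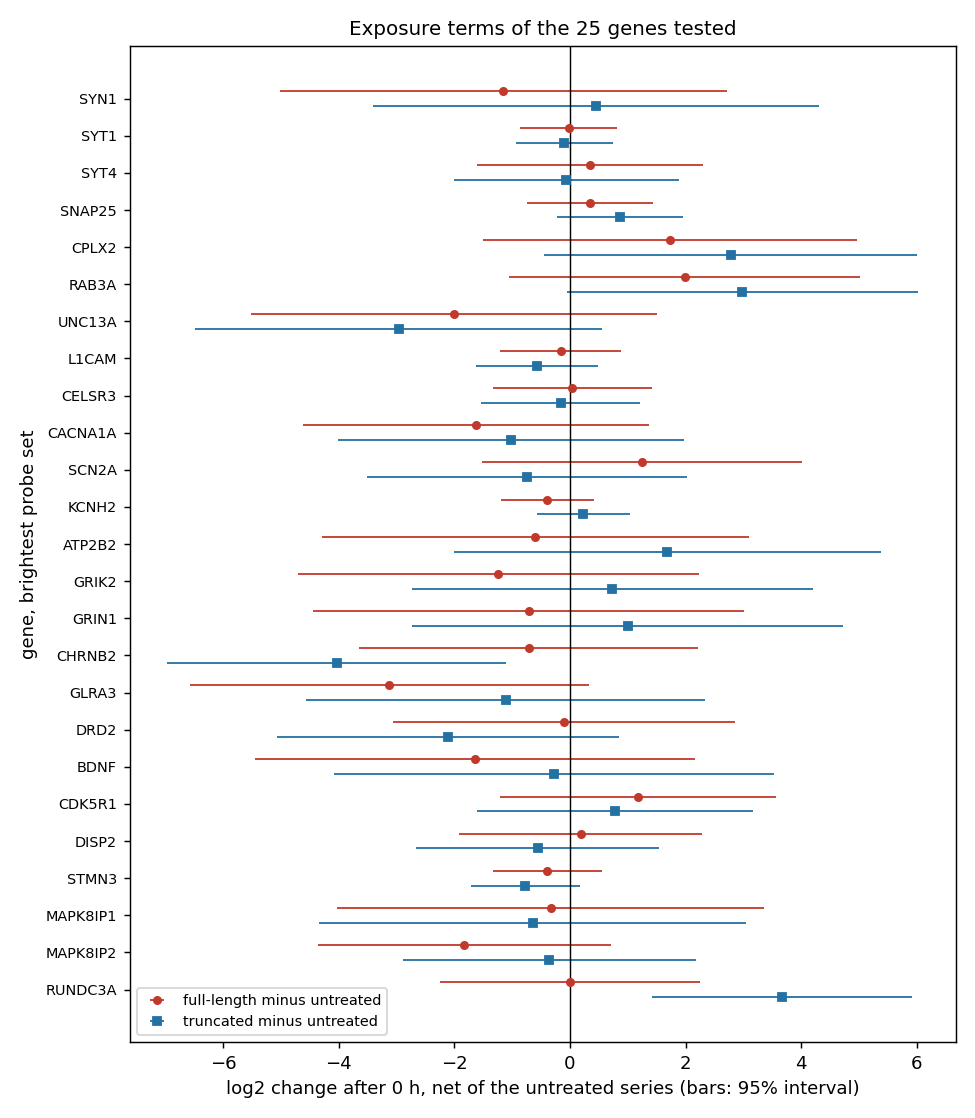
Change after 0 h net of the untreated series (x axis, log2) for the brightest probe set of the 25 genes tested, with full-length (circles) and truncated (squares) NRSF and 95% intervals as bars. CHRNB2 and RUNDC3A have truncated intervals that exclude 0, without passing the adjusted test, and the bars of SYT1, KCNH2, STMN3, L1CAM and SNAP25 are among the shortest.

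Over single pairs of arrays, which have no replicate check, 37.8% of member probe sets differed by 2-fold or more between the full-length and the untreated 0 h array (14 of 37, against 18.9% of all). This count rests on the floor: with the floor at the 40th percentile of all values it was 4 of 37, and the truncated over untreated count at 24 h was 9 in place of 16. Most of the counts that follow also fell by over 1.5 times under that floor. The shares over all probe sets were not taken under that floor. Whether members then still differed more often than all probe sets was therefore not tested. At 24 h the full-length array differed from untreated in 10 of 37 (18.6% of all) and at 48 h in 8 of 37 (20.4% of all). The truncated array differed from untreated in 8 of 37 at 0 h (17.0% of all), 16 of 37 at 24 h (22.6%) and 11 of 37 at 48 h (19.0%). Full-length and truncated arrays differed in 13 of 37 at 0 h (19.6% of all), 15 of 37 at 24 h (21.9%) and 10 of 37 at 48 h (18.1%). From their own 0 h arrays, members differed by as much in 12 of 37 at 24 h and 8 of 37 at 48 h with full-length NRSF (24.1% and 22.4% of all), 17 and 15 with truncated NRSF (31.3% and 22.7%), and 17 and 14 in untreated cells (22.6% and 22.7%). The 24 h counts of the truncated series rest on the array on which dim probe sets read high, and its part in them was not tested. Member probe sets also had a larger standard error than others in the additive model, with a median of 0.66 log2 against 0.36 over all probe sets. Among probe sets at 100 or more on all arrays, the spread over the 9 arrays was closer. Its median standard deviation was 0.35 log2 for the 6 members and 0.31 over all 12424. The part of low signal in the larger standard errors was not tested.

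**Figure D4:**
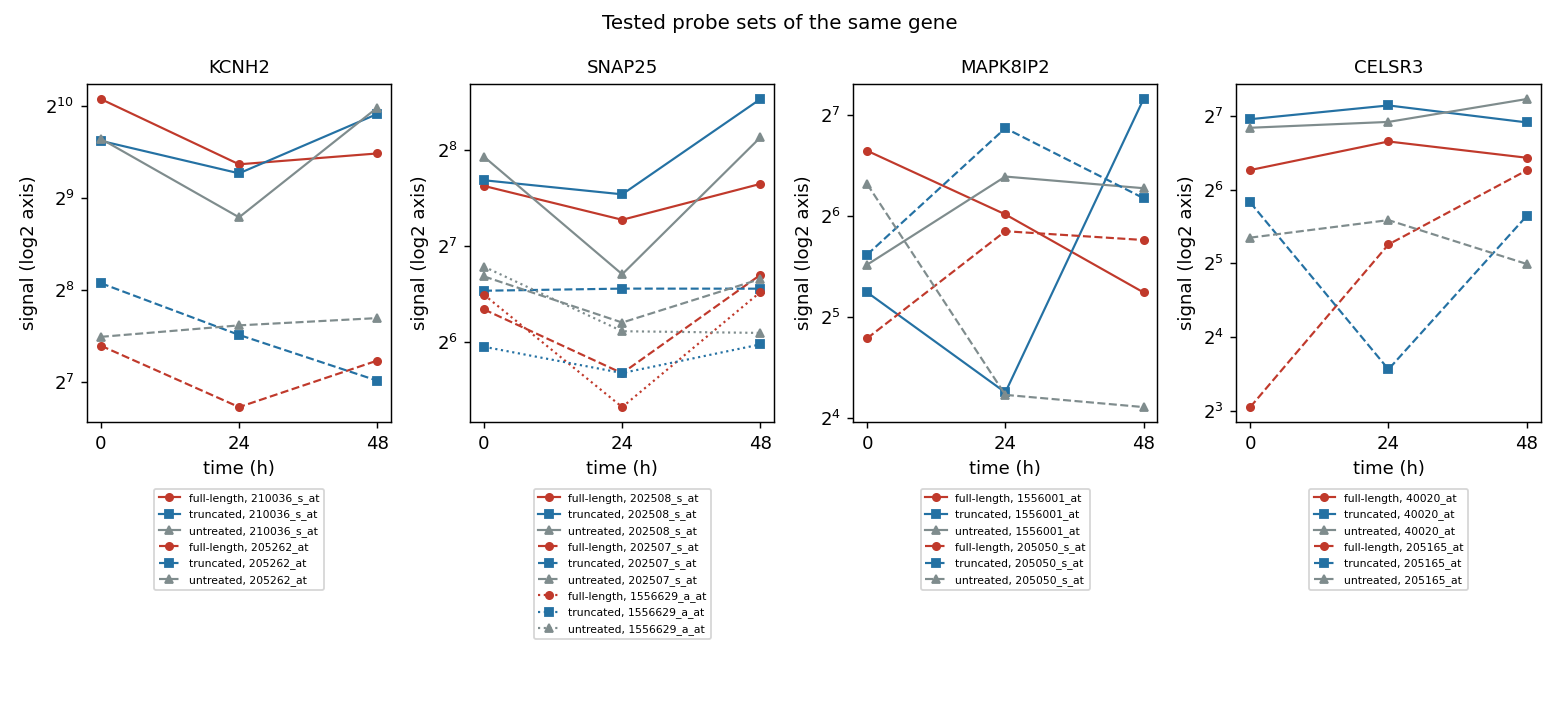
Signal (log2 axis, values below the floor set to it) against time in h for the tested probe sets of 4 genes, with 1 line style per probe set and 1 array per point. The 3 SNAP25 probe sets share a low value at 24 h in the full-length and untreated series, except that the dimmest untreated line reads 69.2 at 24 h and 68.4 at 48 h, while those of KCNH2, MAPK8IP2 and CELSR3 differ in direction between probe sets.

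Other genes of these pathways were read on their brightest probe sets. For reference, 50.3% of all named genes reached 100 on at least 1 array and 36.0% on all 9. Of all probe sets tested, 11.5% were called at 24 h (5.73% higher and 5.74% lower) and 5.46% at 48 h. Of 32 other vesicle release genes on the array 18 reached 100 on at least 1 array and 12 on all. Of the 22 tested, 2 rose and 1 fell at 24 h. The values were 1.35 ± 0.20 log2 for SYT11, a synaptotagmin gene (adjusted p = 0.00018), 1.24 ± 0.31 for the SNARE gene STX1A (0.012) and −0.78 ± 0.25 for RAB3D, a GTPase of secretory vesicles (0.046). SYT11 also rose at 48 h, by 1.57 ± 0.20. Of 24 other voltage-gated channel genes 7 reached 100, and of 16 tested 1 fell at 24 and 48 h, the calcium channel subunit gene CACNA2D1 (−0.88 ± 0.19 and −0.76 ± 0.19). Of 33 other neurotransmitter receptor genes 5 reached 100, and of 17 tested 1 fell at 24 h, the serotonin receptor gene HTR2B (−1.62 ± 0.21).

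Of 29 other RE1 target genes 10 reached 100 on at least 1 array, against 50.3% of all named genes. Of 16 tested 3 rose and 2 fell at 24 h, where 11.5% of all probe sets were called. They were led by the neurofilament gene INA (1.82 ± 0.25) and the stress hormone gene CRH (−1.55 ± 0.23). All 15 NRSF and corepressor genes read reached 100 on at least 1 array, and 5 fell and 1 rose at 24 h, beside the same shares over all. HMG20B, a subunit of the CoREST complex, stood at −2.03 ± 0.31 and EHMT2, a histone methyltransferase gene, at −1.18 ± 0.23, and REST rose by 0.99 ± 0.22 (adjusted p = 0.0052) and at 48 h by 0.77 ± 0.22 (0.045). In none of these 5 lists did limma call a gene in any of the 6 comparisons between series or constructs.

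Markers of other states and cell types were read in the same way. Beside their counts, 11.5% of all probe sets were called at 24 h, and 50.3% of all named genes reached 100 on at least 1 array. At 24 h, when KCNH2 was called, 2 of 12 mesenchymal markers rose and 6 fell, and 1 of 8 sympathoadrenal markers tested fell, DDC (−0.93 ± 0.20). Their part in the KCNH2 result was not tested. Of the epithelial markers 5 of 6 stayed below 100 on all arrays, with EPCAM and CDH1 at or below 38.6, and CLDN4 reached 116. Of the endothelial markers 5 of 6 stayed below 100, with VWF and CDH5 at or below 43.1, and PECAM1 read 101 to 185. Of the blood cell markers 4 of 5 stayed below 100, and PTPRC read 57.8 to 175. Of the Schwann cell markers 2 of 3 stayed below 100, SOX10 and S100B, and MBP read 193 to 359.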

How the data were processed

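Total RNA of SK-N-AS cells was hybridized to 9 Affymetrix arrays, 1 for each of 3 series at 0, 24 and 48 h. The authors deposited linear signal intensity for each probe set, and the submitters' processing notes name GCOS, with no version. The deposited intensity values have a mean, trimmed by 2% at each end, of 150.02 on every array. Detection calls were not used here. The number of arrays limits the precision.

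Probe sets were named from the platform annotation: 41091 name 1 gene, 1801 several and 11721 none, and 62 control probe sets were left out. Values were raised to a floor of 8.27, the 25th percentile of all values, and taken to log2. Probe sets with a mean log2 signal above the 40th percentile (4.20) were tested with limma 3.58.1 in R 4.3.3 (lmFit, eBayes with a variance trend), with Benjamini-Hochberg adjustment over 32752. Series and time were additive terms (4 residual degrees of freedom), and a second model held an exposure term for each construct (2 residual degrees of freedom). Errors are standard errors, and the code was tested on simulated data. Signals are given unfloored.

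The members and all gene lists were chosen with earlier results of these data known. Values on all arrays are given for members that reach 100, are called, or have 1 of the 3 largest exposure terms per construct, and for REST. DISP2, GRIN1, SCN2A and second probe sets were added after their values were seen. Of other lists at most 4 called genes per comparison are named.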

Additional observations from a re-analysis of the deposited data

How the results depend on the processing

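With 1 array per group, p-values rest on series or times standing in for replicates. The additive terms already compare hours within a series and series within an hour. No paired analysis was possible beyond that because the labels give no replicate numbers for a further block. The count of expressed members, 8 of 35, was 19 at a threshold of 50, 5 at 200 and 5 when a gene's probe sets were averaged. The single call at 24 h became 0 with no filter (85 tested), with no variance trend, on the mean of all probe sets (16 tested) and without the truncated 24 h array. Leaving out 1 series at a time gave 0 to 1. KCNH2 was called in 6 of 12 alternatives, with log2 values of −0.78 to −0.50 and adjusted p of 0.023 to 0.26. Calls over all probe sets at 24 h were 3757, against 1298 with no filter, 243 with no trend and 2235 without the truncated 24 h array, and at 48 h they were 1788, against 98 and 3 with no filter and no trend. In the other 7 comparisons 0 members were called under every alternative run. The 2-fold counts with the floor at the 40th percentile are of members only, since shares over all probe sets were not taken under it. For full-length over untreated, truncated over untreated and full-length over truncated arrays they were 4, 3 and 7 at 0 h. At 24 h they came to 6, 9 and 8. At 48 h truncated over untreated gave 6 and full-length over truncated 5. Against the 0 h array of the same series, the full-length series gave 6 (24 h) and 3 (48 h), the truncated series 10 and 6, the untreated series 8 and 6. On the mean of all probe sets the sign turned for L1CAM (full-length exposure 0.066, truncated 0.97), MAPK8IP2 (0.92 and 1.84), KCNH2 (truncated exposure −0.37) and STMN3 at 48 h (0.18), none of them called. MAPK8IP2 also turned, to a truncated term of 1.32, without the truncated 24 h array, chosen after seeing the data for the exposure terms. The REST rise was lost at 24 h with no filter (adjusted p = 0.067), no trend (0.11), the mean of probe sets (0.23) and without the untreated series (0.069). At 48 h it was lost in 7 alternatives: the floor at a signal of 1 (0.0504), no filter (0.18), no trend (0.25), the mean of probe sets (0.58), and without the full-length (0.16), the truncated (0.24) or the untreated series (0.093). The causes of these changes were not tested.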
